A study of Homo sapiens with 6 samples.

Results

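The genes described here are the core of the machinery that makes small RNAs and silences mRNAs with them. They are the Argonautes *AGO1*, *AGO2*, *AGO3* and *AGO4*, the nucleases *DICER1* and *DROSHA*, the DROSHA partner *DGCR8*, and the GW182 proteins *TNRC6A*, *TNRC6B* and *TNRC6C*. The 10 genes were chosen by symbol from the 60480 gene identifiers of the count table, each symbol occurs once, and all 10 were among the 19778 genes that passed the filter on low counts. RNA-seq was done on poly(A) RNA of OE-19 cells, a human cell line of adenocarcinoma of the esophagogastric junction (AEG). Libraries came from 3 samples labelled control knockdown (shControl, named Puro in the count table) and 3 samples labelled IGF2BP3 knockdown (IGF2BP3 KD), made with shRNA. IGF2BP3 is an RNA-binding protein that reads m6A and stabilizes mRNAs, and the comparison asks which transcripts change when it is depleted. No other agent or allele is named for either group. The sources used here do not say whether the control vector expresses a hairpin, whether the 3 IGF2BP3 KD libraries carry the same shRNA, or whether the 3 samples of a group were separate cultures. The p-values therefore measure only the spread between these samples.

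In the microRNA pathway, DROSHA and DGCR8 form the Microprocessor, which cuts hairpins out of primary transcripts in the nucleus. Exportin 5 carries the hairpins to the cytoplasm, where DICER1 cuts them to short duplexes. An Argonaute keeps a strand of the duplex and pairs its seed, the bases near the 5′ end, with mRNAs, and the TNRC6 proteins connect Argonaute to the enzymes that shorten the poly(A) tail, remove the cap and degrade the mRNA. Hairpins expressed for RNA interference enter the same pathway at DICER1 and Argonaute, so the genes described here also act on the shRNAs used for a knockdown. Poly(A) RNA-seq measures the mRNAs of these proteins and not the mature microRNAs.

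Total counts per library lay between 53453621 and 70026203. *IGF2BP3*, the target of the knockdown, fell from 108 ± 2.92 to 13.2 ± 0.996 TMM-scaled CPM (CPM, each gene's counts relative to the library's total after edgeR's library scaling, given as mean ± SD, n = 3 in each group). Its log2 fold change was -3.03 (standard error 0.06). All 6 epithelial markers on the list for the cell type (*EPCAM*, *KRT8*, *KRT18*, *KRT19*, *CDH1* and *VIL1*) were well expressed, with control means from 364 to 2627 CPM, and the largest log2 fold change among them was 0.15, in *EPCAM*. Of 7 markers of other cell types, *PTPRC*, *PECAM1*, *COL3A1* and *ACTA2* had at most 11 counts in any library and *PDGFRB* at most 39. *COL1A1* and *CD68* were higher after IGF2BP3 KD (log2 fold changes 0.50 and 0.54), so that the summed level of this list was 54.4 to 61.2 CPM in control and 82.4 to 83.6 CPM in IGF2BP3 KD libraries. Their part in the results below was not tested. In bulk RNA, fewer cells with a transcript and less of the transcript per cell cannot be told apart.

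IGF2BP3 KD cells had less mRNA of the main slicing Argonaute *AGO2*, of *DICER1*, of *AGO1* and of *DGCR8*, and more of *TNRC6C*. Genes with an adjusted p under 0.05 in edgeR's quasi-likelihood test, adjusted over all 19778 genes, are called lower or higher. Of the 10 genes 4 were lower, while 10.6% of all genes tested were lower, and 1 was higher, while 9.87% of all genes tested were higher. Calls in either direction thus took in 5 of the 10 genes and 20.4% of all genes tested. All genes tested include non-coding genes and genes with few counts, and no set matched to the 10 genes in expression was compared. In a fit of protein-coding genes only, 2141 of 13991 genes were lower and 2045 higher, and of the 10 genes again 4 and 1. The median log2 fold change of the 10 genes was -0.13, against 0.01 over all genes tested, and 7 of the 10 were below 0. The values of the groups did not overlap in 7 of the 10 genes, as in 35.8% of all genes tested.

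**Figure D1:**
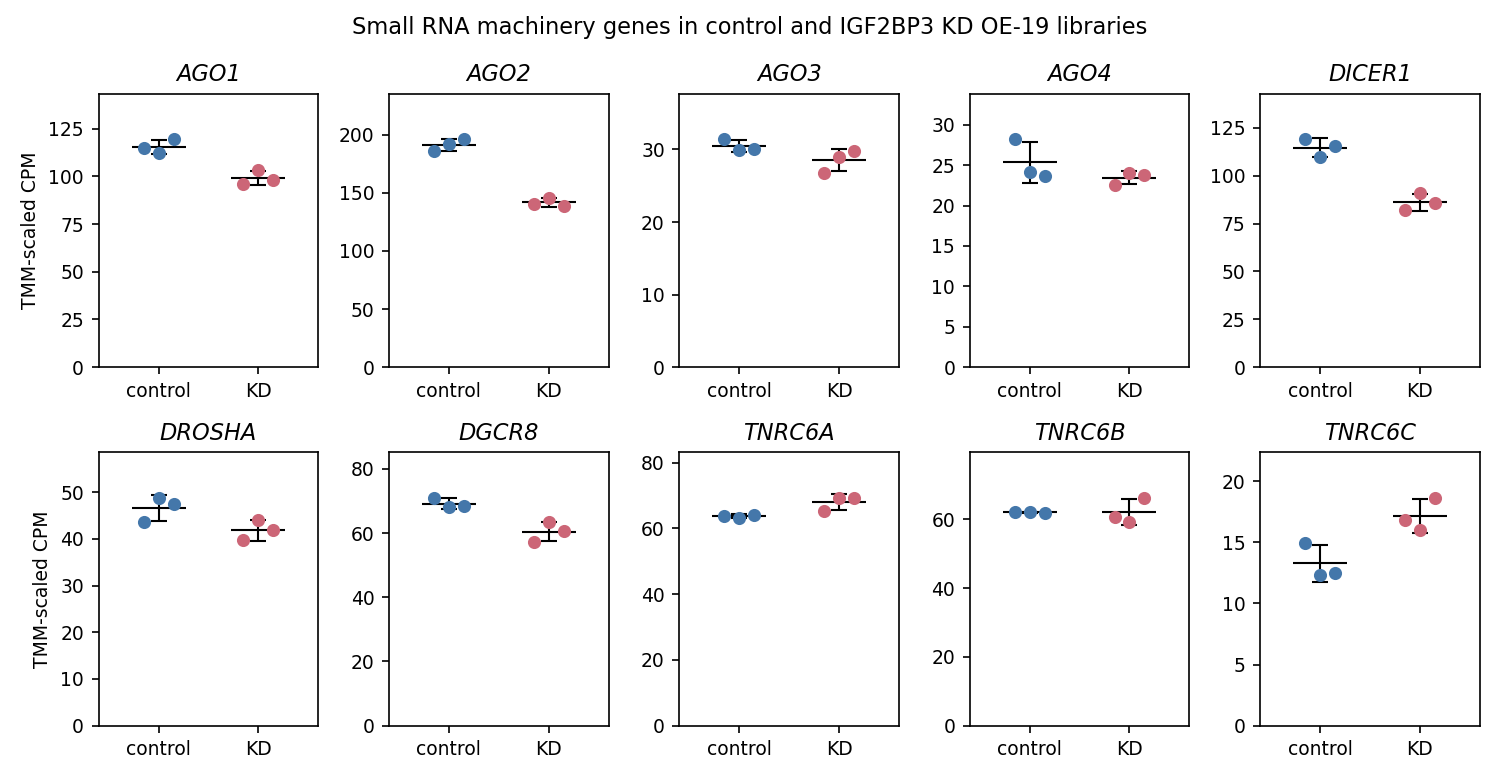
TMM-scaled CPM (vertical axes, linear and starting at 0) of the 10 genes in 3 control and 3 IGF2BP3 KD libraries. Points are libraries, bars the mean ± SD (n = 3), and the IGF2BP3 KD points of *AGO1*, *AGO2*, *DICER1* and *DGCR8* lie below all control points, while those of *TNRC6C* lie above them.

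Argonautes bind the small RNA, and *AGO2* (ENSG00000123908, minus strand of chromosome 8 of hg38, 140520156 to 140635633) encodes the human Argonaute that cuts fully paired targets. Control libraries (in the order of their replicate numbers) had *AGO2* at 186, 192 and 196 CPM, while IGF2BP3 KD libraries had it at 141, 146 and 139 CPM. All IGF2BP3 KD libraries were below all control libraries, by far more than the spread within a group. The mean fell from 191 ± 5.23 to 142 ± 3.72 CPM (SD, n = 3), which is -0.43 as a log2 fold change (standard error 0.03, 95% interval -0.51 to -0.36, adjusted p = 8.3e-06). It had the smallest p of the 10 genes and ranked 191 of all genes tested. Fits without 1 library at a time kept the log2 fold change between -0.45 and -0.42 and called the gene in 6 of 6 cases.

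*AGO1* (ENSG00000092847, plus strand of chromosome 1, 35869808 to 35930532), an Argonaute that silences mainly without cutting, was the second most abundant member of the family. Its CPM were 115, 112 and 120 in control libraries and 96.3, 103 and 98.3 in IGF2BP3 KD libraries, with no overlap. The difference was -0.22 on the log2 scale (standard error 0.04, adjusted p = 0.0028), and it was called without any 1 of the 6 libraries. *AGO1*, *AGO3* and *AGO4* lie side by side on the plus strand of chromosome 1, with *AGO4* (ENSG00000134698) from 35808016 to 35857890 and *AGO3* (ENSG00000126070) from 35930718 to 36072500. The neighbours of *AGO1* were not called. *AGO3* went from 30.5 ± 0.837 to 28.5 ± 1.52 CPM, with all IGF2BP3 KD values just below the control values and a log2 fold change of -0.10 (95% interval -0.23 to 0.04, adjusted p = 0.34). *AGO4* went from 25.3 ± 2.51 to 23.5 ± 0.803 CPM, with overlapping groups, and its control replicate 1 at 28.2 CPM stood above the other two control values of 24.1 and 23.7. Its log2 fold change was -0.11 (95% interval -0.28 to 0.06, adjusted p = 0.38), and both intervals still include falls as large as that of *AGO1*. Without control replicate 1 the log2 fold change of *AGO4* was -0.03, and without IGF2BP3 KD replicate 1 that of *AGO3* was -0.06.

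Within each library, *AGO2* took a smaller part of the Argonaute mRNA after IGF2BP3 KD. Counts were divided by the length of all annotated exons to compare genes. *AGO2* then held 46.5%, 48.8% and 48.5% of the summed *AGO1* to *AGO4* level of the control libraries and 44.3%, 43.5% and 43.0% of that of the IGF2BP3 KD libraries. The groups did not overlap, and the mean share differed by -4.38 percentage points, IGF2BP3 KD minus control (two-sided exact permutation test, p = 0.1, the smallest p that 3 against 3 libraries allow). *AGO1* held 32.7% ± 0.572 of the control level and 34.4% ± 0.292 of the IGF2BP3 KD level (SD, n = 3). *AGO3* was the smallest part, with 5.73% ± 0.165 in control and 6.56% ± 0.302 in IGF2BP3 KD cells, and *AGO4* held 13.6% ± 1.35 and 15.4% ± 0.308. The order *AGO2*, *AGO1*, *AGO4*, *AGO3* was the same in all 6 libraries.

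**Figure D2:**
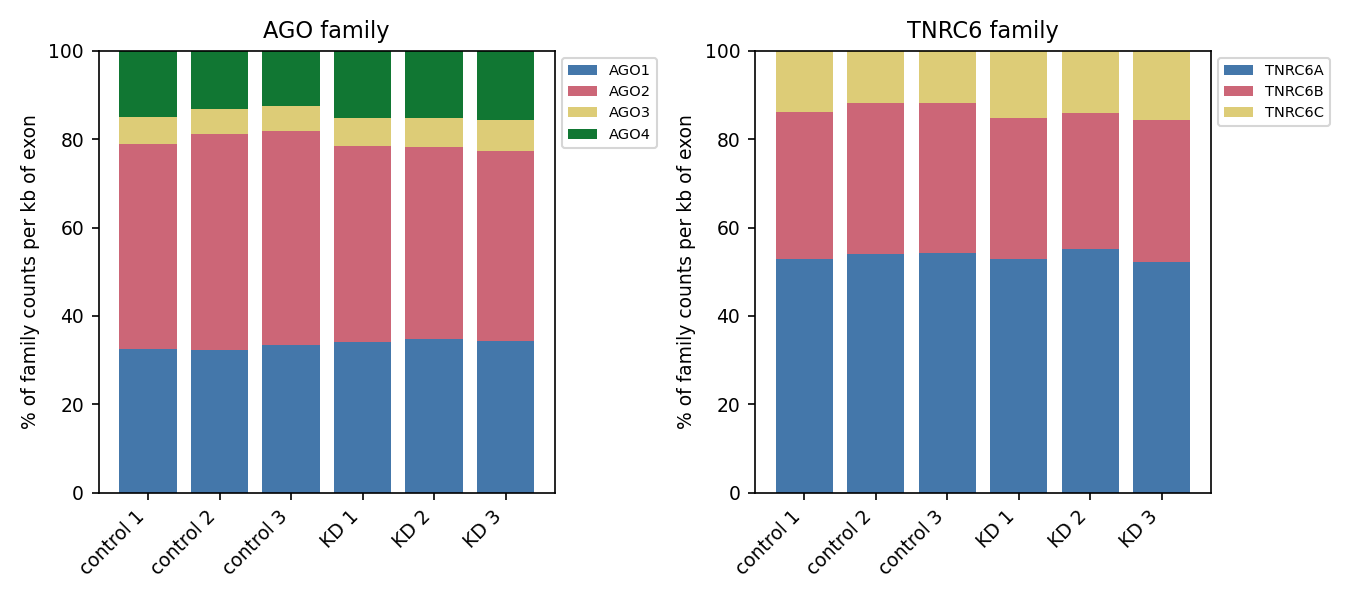
Share (%) of each gene in the summed counts per kilobase of exon of its family, in each of the 6 libraries, for *AGO1* to *AGO4* (left) and *TNRC6A* to *TNRC6C* (right). *AGO2* takes 46.5% to 48.8% of the Argonaute bar in control libraries and 43.0% to 44.3% in IGF2BP3 KD libraries, and *TNRC6C* is the smallest part of the other family in every library.

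*DICER1* (ENSG00000100697, minus strand of chromosome 14, 95086228 to 95158010), the nuclease that releases the small RNA duplex, fell nearly as far as *AGO2*. Its CPM were 119, 109 and 115 with shControl and 82.1, 90.8 and 85.5 after IGF2BP3 KD. The lowest control library was thus above the highest IGF2BP3 KD library. The means were 115 ± 4.86 and 86.1 ± 4.37 CPM, and on the log2 scale the gene fell by 0.41 (standard error 0.05, 95% interval -0.52 to -0.31, adjusted p = 1.1e-04). In the 6 fits that each left out 1 library the value lay between -0.45 and -0.38 and was called each time. *DICER1* shares only 80 exonic bases with *DICER1-AS1* on the opposite strand, which was not called (log2 fold change 0.19, standard error 0.19).

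The Microprocessor genes moved less. *DGCR8* (ENSG00000128191, plus strand of chromosome 22, 20080221 to 20111877), which encodes the RNA-binding subunit, was at 71.1, 68.2 and 68.4 CPM in control libraries and at 57.3, 63.4 and 60.6 CPM in IGF2BP3 KD libraries. With no overlap between the groups, *DGCR8* fell by 0.20 on the log2 scale (standard error 0.05, adjusted p = 0.016). The call of *DGCR8* was lost without IGF2BP3 KD replicate 1, the library with its lowest value (log2 fold change -0.16, adjusted p = 0.064). *DROSHA* (ENSG00000113360, minus strand of chromosome 5, 31400494 to 31532196), the nuclease of the complex, was at 43.6, 48.8 and 47.5 CPM in control libraries and at 39.7, 44.1 and 41.9 CPM in IGF2BP3 KD libraries. Control replicate 1 fell within the IGF2BP3 KD range, and the log2 fold change of -0.16 was not called (95% interval -0.29 to -0.02, adjusted p = 0.11). Without that control library, *DROSHA* was called, with a log2 fold change of -0.20 (adjusted p = 0.046).

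The log2 ratio of *DROSHA* to *DGCR8* per kilobase of exon was -0.66 ± 0.12 in control cells and -0.62 ± 0.0047 in IGF2BP3 KD cells (SD, n = 3). The difference of 0.04 was smaller than the spread between control libraries (two-sided exact permutation test, p = 0.9), and the test does not tell the changes of the subunits apart. The Microprocessor is known to cut a hairpin in the *DGCR8* mRNA itself. The annotated hairpins *MIR3618* and *MIR1306* share 88 and 85 exonic bases with *DGCR8*, and they had at most 1 count in any library, too few to measure them. The lncRNA *AC006547.8*, which shares 526 exonic bases with *DGCR8* on the opposite strand, also had at most 1 count.

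The TNRC6 genes did not fall. *TNRC6C* (ENSG00000078687, plus strand of chromosome 17, 77958703 to 78108822) had the lowest mRNA level of these genes for scaffold proteins. It had 15.0, 12.3 and 12.5 CPM in the control group and 16.8, 16.0 and 18.7 CPM in the IGF2BP3 KD group. All IGF2BP3 KD values were above the control values, by 0.37 on the log2 scale (standard error 0.10, 95% interval 0.15 to 0.59, adjusted p = 0.02). Of 6 fits without 1 library, only 2 kept the call, with values from 0.30 to 0.46. It was lost without control replicate 2 (0.32), control replicate 3 (0.33), IGF2BP3 KD replicate 1 (0.38) or IGF2BP3 KD replicate 3 (0.30). *TNRC6C* shares 1426 exonic bases, 12.3% of its exons, with *TMC6* on the opposite strand. The strand setting of the counting is not stated, and *TMC6* was at 116 ± 6.22 and 117 ± 0.486 CPM, so reads of this more abundant neighbour could not be told apart there.

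*TNRC6A* (ENSG00000090905, plus strand of chromosome 16, 24610209 to 24827632) went from 63.8 ± 0.527 to 68.1 ± 2.31 CPM, with all IGF2BP3 KD values above the control values. Its log2 fold change of 0.09 was not called (standard error 0.04, adjusted p = 0.18). *TNRC6B* (ENSG00000100354, plus strand of chromosome 22, 40044817 to 40335808) was at 62.0 ± 0.208 CPM in control and 62.1 ± 3.7 CPM in IGF2BP3 KD cells. The 95% interval of its log2 fold change, -0.11 to 0.11, excludes a fall as large as those of *AGO1*, *AGO2*, *DICER1* and *DGCR8*. The share of *TNRC6B* in the summed TNRC6 level per kilobase was 33.4%, 34.3% and 33.9% in control libraries and 31.9%, 30.6% and 32.3% in IGF2BP3 KD libraries. The mean difference was -2.28 percentage points, with no overlap between the groups (two-sided exact permutation test, p = 0.1, again the smallest possible). The level of *TNRC6B* itself hardly moved. The share of *TNRC6C* was 12.4% ± 1.19 in control and 15.0% ± 0.721 in IGF2BP3 KD libraries, with the limits on this gene given above. That of *TNRC6A* was 53.7% ± 0.782 and 53.4% ± 1.6 (SD, n = 3).

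**Figure D3:**
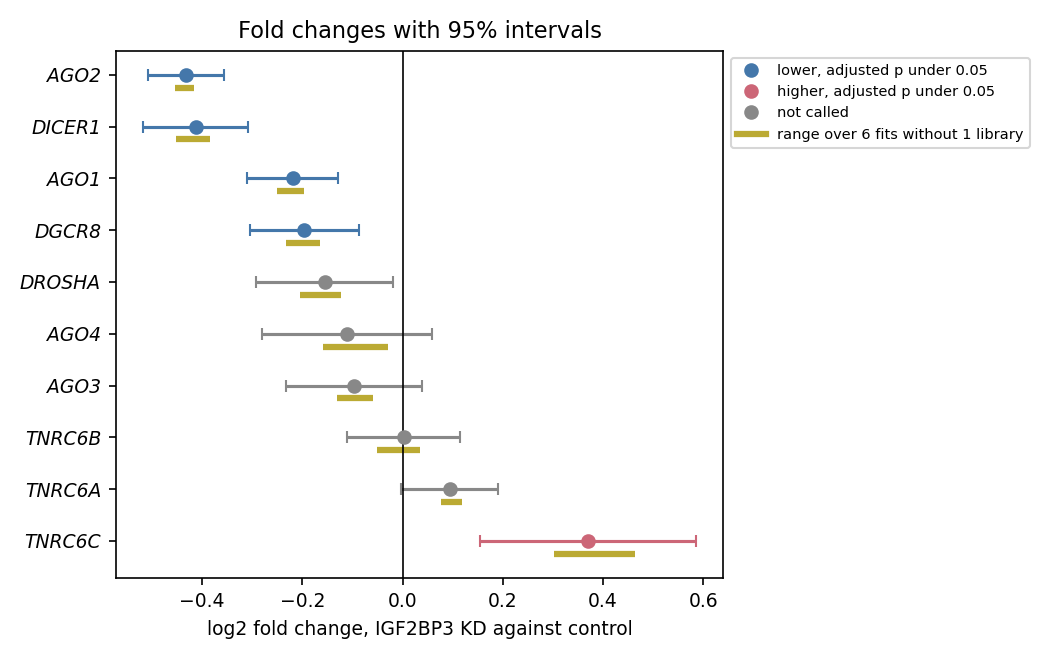
Log2 fold change of IGF2BP3 KD against control (horizontal axis) for the 10 genes, with 95% intervals from edgeR. Blue points are called lower, red higher and grey not called, and the yellow bars give the range over fits without 1 library, from -0.45 to -0.42 for *AGO2* and from 0.30 to 0.46 for *TNRC6C*.

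Levels of different genes can be compared only per length. In control cells *AGO2* had the highest level of the 10 genes at 12.1 ± 0.33 CPM per kilobase of exon (SD, n = 3), followed by *DGCR8* at 9.45 ± 0.218 and *AGO1* at 8.24 ± 0.259. *DROSHA* at 5.99 ± 0.35, *DICER1* at 5.18 ± 0.22 and *TNRC6A* at 4.92 ± 0.0407 CPM per kilobase came next, and the control ranges of *DICER1* and *TNRC6A* overlapped. *AGO4* at 3.41 ± 0.338, *TNRC6B* at 3.1 ± 0.0104, *AGO3* at 1.44 ± 0.0396 and *TNRC6C* at 1.14 ± 0.128 CPM per kilobase closed the order. The annotated exons of *DICER1* add up to 22151 bases, while its reference transcript has 10384. With the length of the longest transcript in place of all exons, *DGCR8* at 14.8 and *AGO2* at 13.1 CPM per kilobase exchanged places and *DICER1* rose to 9.03. *TNRC6C* and *AGO3* were the lowest with either length.

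The pattern of *AGO2* over the 6 libraries was compared with that of every tested gene by the Euclidean distance of log2 CPM centred on the gene's mean. The nearest genes were *PASK* (distance 0.042), which encodes a PAS-domain kinase, *PPP1R8* (0.055), which encodes a regulator of protein phosphatase 1, and *GRHL3* (0.056), which encodes an epithelial transcription factor. Their log2 fold changes were -0.42, -0.44 and -0.45. Values close to that of *AGO2* follow from choosing the genes by this distance and are not a separate result.

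The 3′ UTRs of several of these genes are long, and 5 of the 10 hold the 7-base word GATTACT. This word and ACACATC were picked from earlier results on the same libraries, so their presence is a description and supports nothing. On the reference transcripts of GENCODE v44, each of *AGO1*, *AGO2*, *AGO3*, *DICER1* and *TNRC6B* holds GATTACT once, and *AGO3* and *TNRC6B* also hold ACACATC once. *AGO4*, *DROSHA*, *DGCR8*, *TNRC6A* and *TNRC6C* hold neither. Words were searched on the transcript strand only, and the sites are shown with the word in capitals, 5′ to 3′, because they mark which genes of the pathway carry them. The GATTACT site of *AGO2*, at base 8573 of its 3′ UTR, is not printed here.
AGO1, base 1919 of the 3′ UTR, chr1:35921515-35921543, plus strand: gatgaagccatGATTACTttagacctagc
AGO3, base 10497, chr1:36066231-36066259, plus strand: ctagagagggaGATTACTctgatatttag
DICER1, base 3660, chr14:95086821-95086849, minus strand: ttccaaccactGATTACTtttcaggaatt
TNRC6B, base 4640, chr22:40327870-40327898, plus strand: ttaaaacacttGATTACTagtggcttaga
AGO3, base 9049, chr1:36064783-36064811, plus strand: ttcagccccgcACACATCaagtactaatt
TNRC6B, base 7732, chr22:40330962-40330990, plus strand: agcgcaggtttACACATCtgcattcccta

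The 3 genes with GATTACT and without ACACATC, *AGO2*, *DICER1* and *AGO1*, had the 3 lowest log2 fold changes of the 10, at -0.43, -0.41 and -0.22. *AGO3* and *TNRC6B*, with both words, were at -0.10 and 0.00 and were not called. *DGCR8* was lower without either word. Among the 13917 tested coding genes with an annotated 3′ UTR, without *IGF2BP3*, the median log2 fold change was -0.15 for 865 genes with GATTACT only, of which 37.3% were lower and 5.43% higher. The 207 genes with both words had a median of -0.07, with 25.6% lower and 12.1% higher. The 1120 genes with ACACATC only, none of them among the 10, had a median of 0.14, with 7.95% lower and 31.1% higher. The 11725 genes with neither word had a median of 0.00, with 13.1% lower and 11.9% higher. These classes include the genes described here. Both words were picked from results of these same libraries, so the class values are a description and cannot support an effect of the words.

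Long 3′ UTRs hold any given word more often. GATTACT is in 7.7% of the 13917 3′ UTRs and in 25.4% of the 1792 with at least 4000 bases, a length that *AGO1* (10925 bases), *AGO2* (11888), *AGO3* (16755), *AGO4* (4285), *DICER1* (4270) and *TNRC6B* (12567) reach. In 3′ UTRs of at least 4000 bases, the median log2 fold change was -0.10 for the 309 genes with GATTACT only, of which 31.7% were lower. It was 0.00 for the 978 with neither word, of which 16.0% were lower. These values too are only a description, since the word came from the same libraries. The word TGGAC, the DNA form of a core motif known for IGF2BP proteins, occurs in 8 of the 10 3′ UTRs, all but *DROSHA* and *TNRC6A*. It is in 61.4% of all the 3′ UTRs searched and in 97.4% of the long ones. *AGO1* holds it 13 times, *AGO2* 10 times, *AGO3* 9 times, *DGCR8* 7 times and *DICER1* once. The match to the let-7 seed, CTACCTC, is in *AGO1*, *AGO2* and *AGO3*, in 11% of all the 3′ UTRs and in 31.7% of the long ones, and in no 3′ UTR of the other 7 genes on these transcripts. No mature human microRNA in the RefSeq table, leaving out those encoded on chromosome 8, has bases 2 to 8 that pair fully with GATTACT or ACACATC. The sequences of the shRNAs were not found in the sources used here. Whether the seed of an shRNA pairs with either word was therefore not tested.

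Other genes of the pathway were followed with 6 lists, in the order of the steps they serve. The shares to set beside the counts of every list are 10.6% lower and 9.87% higher over all genes tested. The lists were not matched to all genes tested in expression. Of the 6 well-expressed epithelial markers, which are not part of this pathway, 2 (33.3%) were also lower. They were *KRT8* and *KRT18*, with log2 fold changes of only -0.06 and -0.07. The first list holds 22 partners of processing and export, of which 20 were tested. Of these, 8 were lower and 1 was higher, and the median log2 fold change was -0.13. The largest falls were in *HNRNPA2B1* (852 ± 36.9 to 706 ± 14.4 CPM, log2 fold change -0.27, standard error 0.03) and *HNRNPA1* (1037 ± 41.1 to 881 ± 15.8 CPM, -0.24, standard error 0.03), which encode hnRNP proteins that bind primary microRNAs. *SAFB*, whose protein assists Microprocessor on poor hairpins, fell by 0.22 on the log2 scale (adjusted p = 5.4e-04). *PRKRA*, which encodes the DICER1 partner PACT, was the gene that rose, from 26.9 ± 1.39 to 32.1 ± 0.534 CPM (log2 fold change 0.26, adjusted p = 0.01), a call lost without control replicate 3. The other DICER1 partner, *TARBP2*, and the export factor *XPO5*, named after their values were seen, were not called, at -0.17 and -0.03. The 3′ UTR of *XPO5* holds ACACATC once. Those of *HNRNPA2B1*, *HNRNPA1*, *SAFB*, *PRKRA* and *TARBP2* hold neither ACACATC nor GATTACT. *LIN28A* and *LIN28B*, which encode let-7 inhibitors, had at most 4 counts in any library and were not tested.

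Argonautes are loaded with the help of the HSP90 and HSP70 chaperones. Of 12 tested genes of this list, 4 were lower and 1 was higher, and their median was -0.09 on the log2 scale. *HSPA8*, the constitutive HSP70, fell from 1620 ± 42.4 to 1346 ± 20.0 CPM (log2 fold change -0.27, adjusted p = 1.5e-05). *STIP1*, which encodes the HOP protein between HSP70 and HSP90, fell by 0.23 on the log2 scale (adjusted p = 6.5e-04), and *HSPA4* by 0.13 (adjusted p = 0.037), a call kept in 2 of the 6 fits without a library. *HSP90AA1* rose from 742 ± 35.4 to 837 ± 16.5 CPM (log2 fold change 0.17, adjusted p = 0.003). The more abundant *HSP90AB1*, named after its values were seen, fell from 2845 ± 11.8 to 2626 ± 9.48 CPM (-0.12, adjusted p = 0.0004). The 3′ UTRs of the chaperone genes named here hold neither GATTACT nor ACACATC.

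Of 15 tested genes on the list of Argonaute regulators, 5 were lower and 4 were higher, with a median of -0.04. Genes whose proteins act on Argonaute or its mRNA targets moved in both directions. *MOV10*, an RNA helicase that binds Argonaute, rose from 20.6 ± 1.26 to 31.5 ± 2.59 CPM (log2 fold change 0.61, standard error 0.08, adjusted p = 1.8e-04). *FMR1*, which encodes the RNA-binding protein FMRP, rose from 53.5 ± 2.74 to 69.9 ± 2.29 CPM (0.38, adjusted p = 3.3e-04), and *P4HA1*, a prolyl hydroxylase subunit, had a log2 fold change of 0.31. *AJUBA*, a LIM protein of the P-body, fell from 129 ± 3.84 to 95.2 ± 5.05 CPM (-0.44, adjusted p = 4.6e-05). The 3′ UTRs of *MOV10* and *FMR1* hold ACACATC once each, while those of *P4HA1* and *AJUBA* hold neither ACACATC nor GATTACT. Other genes of this list, named after their values were seen, hold a word and were not called. They are *CSNK1A1* and *WTIP* with ACACATC, at 0.04 and -0.04, and *FXR1* with GATTACT, at 0.06.

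The effectors that TNRC6 proteins recruit changed in both directions. Of 27 tested genes for deadenylation, decapping and 5′ to 3′ decay, 9 were lower and 3 were higher, with a median of -0.06. The decapping enzyme *DCP2* fell from 66.3 ± 3.2 to 34.9 ± 2.34 CPM (log2 fold change -0.92, standard error 0.06, adjusted p = 2.1e-06), and its activator *DCP1A* from 35.8 ± 1.4 to 21.3 ± 1.25 CPM (-0.75, adjusted p = 1.5e-05). *PABPC4*, a poly(A)-binding protein, fell by 0.36 on the log2 scale. The deadenylase *CNOT6* rose from 40.0 ± 0.909 to 71.0 ± 3.75 CPM (0.83, standard error 0.05, adjusted p = 1.5e-06). *DCP2* holds GATTACT 2 times in its 3′ UTR, *CNOT6* holds ACACATC once, and *DCP1A* and *PABPC4* hold neither. All 4 kept their call without any 1 library.

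The PIWI clade is the branch of the Argonaute family known from the germline. Of 15 genes for PIWI proteins and their partners only 7 were tested, and 1 was lower. Of the PIWI genes themselves, *PIWIL1* was at 26.9 ± 0.873 CPM in control and 28.8 ± 1.32 CPM in IGF2BP3 KD cells, *PIWIL4* at 12.0 ± 0.546 and 11.1 ± 0.112 CPM, and *PIWIL2* at 2.03 ± 0.338 and 1.96 ± 0.41 CPM. None of these 3 genes, named after their values were seen, was called. *PIWIL3*, *MAEL*, *ASZ1* and *PNLDC1* had 0 counts in all libraries. *TDRKH* was the lower gene (28.9 ± 1.36 to 24.8 ± 1.43 CPM, log2 fold change -0.22, adjusted p = 0.041), and its call was kept in 1 of the 6 fits without a library.

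Host genes carry microRNAs in their introns or exons, and their mRNA level is not the level of the microRNA. Of 40 tested host genes 6 were lower (15.0%) and 8 were higher (20.0%), against 10.6% and 9.87% of all genes tested. Their median log2 fold change was -0.02. *PANK3*, the host of a miR-103a locus, fell from 226 ± 7.17 to 154 ± 4.35 CPM (log2 fold change -0.55, adjusted p = 1.5e-06), and its 3′ UTR holds GATTACT 2 times. *MCM7*, the host of the miR-106b cluster, fell from 293 ± 3.95 to 208 ± 2.63 CPM (-0.49), and *MEST*, the host of miR-335, fell by 0.42 on the log2 scale. *EGFL7*, the host of miR-126, rose from 35.7 ± 2.81 to 48.4 ± 2.35 CPM (0.44, adjusted p = 8.1e-04). The 3′ UTRs of *MCM7*, *MEST* and *EGFL7* hold neither GATTACT nor ACACATC. Leaving out 1 library gave 3 or 4 higher host genes for 5 of the 6 libraries and 8 without control replicate 1. Over all genes, 1414 to 1489 were higher in those 5 fits, 1741 without control replicate 1 and 1953 with all 6 libraries. *MIR205HG*, *MIR100HG* and *MIR155HG* had at most 4 counts and were not tested.

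**Figure D4:**
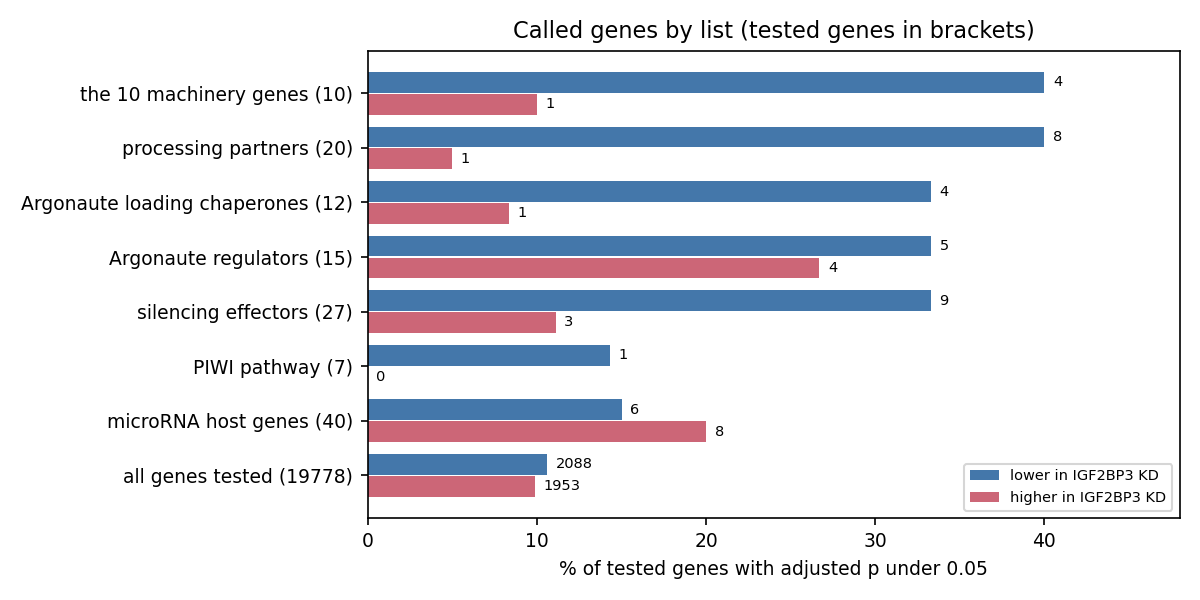
Percent of tested genes called lower (blue) or higher (red) in IGF2BP3 KD cells for the 10 genes, the 6 pathway lists and all genes tested, with the number of called genes beside each bar. Lower genes made up 40.0% of the 10 genes and of the processing partners, and 33.3% of the chaperones, regulators and effectors. They made up 10.6% of all genes tested, which include non-coding genes and genes with few counts. No test was made between lists.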

How the data were processed

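RNA-seq counts of 3 control and 3 IGF2BP3 KD libraries of OE-19 cells were used. According to the submitters' processing notes and the study's methods, the authors treated paired reads of 150 bases with fastp, HISAT2 (hg38) and featureCounts, and deposited raw counts per gene. Versions, the annotation release and the strand setting are not given in the sources used here, so counts of overlapping genes are uncertain. Of 60612 entries, 132 repeated ones were left out, which leaves 60480 identifiers. Columns were assigned to samples by name.

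The deposited counts went into the quasi-likelihood test of edgeR 4.0.16 (R 4.3.3), with TMM scaling, no block, filterByExpr at its minima of 10 (count) and 15 (total), and Benjamini-Hochberg adjustment over 19778 genes and a threshold of 0.05. The script was tested on simulated data. Alternatives were DESeq2 1.42.0 and those named in the closing section. Lengths, positions and 3′ UTRs come from GENCODE v44 on hg38, which holds 99.97% of the tested genes. Shares within families were compared with exact permutation tests in scipy 1.17.1. The 10 genes and the lists were chosen with earlier results of these data known. Beside the 10 genes and *IGF2BP3*, up to 4 called genes of each list with the largest change and no overlap between groups are named, with exceptions stated.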

Additional observations from a re-analysis of the deposited data

How the results depend on the processing

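The 4 lower genes were called lower under DESeq2, RLE scaling, no filter on low counts, at least 10 counts in every library, protein-coding genes only, and trends on GC content or exon length removed. At an adjusted p under 0.01, 3 remained lower and 0 were higher, since *DGCR8* and *TNRC6C* were lost. *TNRC6C* was also lost without a low-count filter (0.36), which left 0 higher genes. *TNRC6B* changed sign at values near 0: -0.0047 with DESeq2, -0.0021 with RLE, -0.0023 with at least 10 counts in every library and -0.0071 without a filter. Without a filter, lower regulators numbered 3, lower PIWI genes 0 and higher host genes 4. The cause of these changes was not tested. Calls over all genes also differed between settings. DESeq2 called 16.6% of 14581 genes lower and 14.2% higher. With protein-coding genes only, 2141 of 13991 genes were lower, and without a filter 1768 of 38462.

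With each library left out in turn, log2 fold changes ranged from -0.13 to -0.06 for *AGO3*, from -0.16 to -0.03 for *AGO4*, from -0.20 to -0.12 for *DROSHA*, from -0.23 to -0.16 for *DGCR8*, from -0.0502 to 0.0345 for *TNRC6B* and from 0.30 to 0.46 for *TNRC6C*. Counts ranged from 3 to 5 lower and 0 to 1 higher among the 10 genes, 0 to 1 for higher partners, 3 to 5 for lower regulators, 0 to 1 for lower and for higher PIWI genes, and 3 to 8 for higher host genes. Calls over all genes also became fewer in these fits. They ranged from 1641 to 1970 lower and from 1414 to 1741 higher, against 2088 and 1953 with all 6 libraries. The fewest lower regulators, 3, came without IGF2BP3 KD replicate 1 or control replicate 3. The difference in the *DROSHA* to *DGCR8* log2 ratio ranged from -0.025 to 0.086 and was below 0 without control replicate 1.

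The replicate numbers are shared by title only. Deviations of same-numbered libraries correlated at -0.0295, -0.0924 and -0.0771, and those of differently numbered libraries at -0.00739 to 0.0839. No strong effect shared by a replicate number was thus seen. With so few libraries in each group, these values cannot decide whether same-numbered samples were prepared together. With the replicate number as a block, 4 of the 10 genes were lower and 1 was higher, with *AGO2* at -0.43 and no call of the 10 genes changed, and over all genes 2026 were lower and 1875 higher. With GC trends removed and the block, 7 chaperones were lower. The 95% intervals of *AGO3* and *AGO4* in the main fit include 0, as do those of *TNRC6A* and *TNRC6B*.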
